A study of Mus musculus with 6 samples.

Results

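The mouse genes Gadd45gip1, Tmsb10, Ccdc58 and Taf1b were followed across single oocytes and pools of oocytes. They were 4 of 54658 genes in the table of single oocytes, and all 4 were also among the 14165 genes in the table of pools. They were chosen by their ratio of summed levels in aged over young oocytes, which was among the highest when aged oocytes with a large mitochondrially encoded share of reads were set aside. Their ratio is therefore given as a description with no test.

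All samples were oocytes arrested in the second meiotic division (metaphase II, MII), read by Smart-seq2, which copies full-length polyadenylated RNA and amplifies it by PCR. A first sample held 59 single oocytes labelled aged and a second 35 single oocytes labelled young, neither given a treatment. Each of the remaining 4 samples pooled 10 oocytes and was labelled young. Of these 2 carried the treatment label siCtrl (control short interfering RNA) and 2 siPlat (short interfering RNA against Plat, the gene of tissue-type plasminogen activator). The sources used here give no strain, age in months or number of animals, so the p-values below cover the spread between pools alone, which may be technical, and each age was 1 sample with no replicate check.

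The members have unrelated textbook roles. Gadd45gip1 (also Crif1) was named for its binding to GADD45 proteins and is a protein of the large subunit of the mitochondrial ribosome, where it helps to place newly made respiratory chain proteins in the inner membrane. Tmsb10 is a beta-thymosin, a very small protein that holds actin monomers. Ccdc58 is the relative of yeast Mix23, a protein of the mitochondrial intermembrane space that in yeast assists protein import. Taf1b is a subunit of the selectivity factor that recruits RNA polymerase I to ribosomal RNA genes. An MII oocyte transcribes almost nothing and lives on stored mRNA, whose poly(A) tails lengthen and shorten during maturation, so a poly(A)-primed library reads the stored pool as it is adenylated at that time.

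The aged oocytes fell into libraries of low and high mitochondrial share. In 38 of 59, mitochondrially encoded genes took at most 5% of gene counts, with a highest value of 2.97%, and in 21 it lay above 5%, with a lowest value of 6.78% and a highest of 61.6%. All 35 young oocytes were at or under 1.92%. The former are called low-share and the latter high-share oocytes below. Low-share libraries held 3399781 to 9502184 gene counts, high-share libraries 2018226 to 8648061 and young libraries 5480050 to 11894782. The label "intact" was not measured. A list of 12 oocyte markers summed to 25864 to 38177 CPM (counts scaled to a common library total) in low-share and 27418 to 37817 CPM in young oocytes, against 862 to 5277 CPM in high-share oocytes.

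Gadd45gip1 was at 7.63 to 24.7 CPM in young oocytes (median 12.4) and at 37.2 to 113 CPM in low-share aged oocytes (median 66.6). The lowest low-share oocyte stood above the highest young one. Summed over oocytes, 4317 counts gave 14.2 CPM in young (95% Poisson interval 13.8 to 14.7) and 16827 counts gave 64.6 CPM in low-share aged oocytes (63.6 to 65.6), a ratio of 4.54. These intervals cover counting error only, since PCR reads without molecular identifiers are not independent and animals are not covered. The gene lies at chr8:84831522-84835482 (GRCm38, plus strand).

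Ccdc58 had the lowest CPM of the 4 in both groups, at 2.73 to 11.7 CPM in young (median 6.45) and 12.02 to 46.7 CPM in low-share aged oocytes (median 23.5). Per kilobase of transcript, as given below, it was the lowest in neither. The groups did not overlap. The sums were 6.39 CPM (interval 6.11 to 6.68, 1938 counts) and 24.5 CPM (23.9 to 25.1, 6373 counts), a ratio of 3.83. The gene lies at chr16:36071685-36092120 (plus strand). Its start is 91 bases from that of Fam162a on the other strand, with no shared exon base, and Fam162a was at 1.45 CPM in young and 2.09 CPM in low-share aged oocytes.

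Taf1b was at 4.52 to 23.8 CPM in young (median 13.2) and at 24.2 to 63.7 CPM in low-share aged oocytes (median 39.3), again with no overlap. The sums were 13.4 CPM (interval 13.0 to 13.8, 4066 counts) and 39.96 CPM (39.2 to 40.7, 10407 counts), a ratio of 2.98. The gene lies at chr12:24498359-24558539 (plus strand), and no annotated exon of another gene overlaps its exons. Partial copies exist: Gm19196 matched it at 91.9% of 383 aligned bases and was at 1.03 CPM in young and 1.84 CPM in low-share aged oocytes.

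Tmsb10 varied most from oocyte to oocyte. It was at 12.04 to 74.9 CPM in young (median 19.8) and at 35.98 to 399 CPM in low-share aged oocytes (median 80.2). Here the groups overlapped: 22 of 38 low-share oocytes stood above the highest young oocyte, and 2 of 35 young oocytes above the lowest low-share one. The sums were 23.7 CPM (interval 23.1 to 24.2, 7180 counts) and 95.05 CPM (93.9 to 96.2, 24754 counts), a ratio of 4.02. The low-share oocytes with the highest levels stood at 399, 252 and 152 CPM, and the highest young oocyte at 74.9 CPM was followed by one at 38.1 CPM.

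Tmsb10 lies at chr6:72957347-72958748 (minus strand) and has near-identical copies elsewhere, so the coding sequences of the longest match and of a relative are shown to let the difference be seen. Gm9844 lies at chr7:24862213-24862697 (plus strand) and the other beta-thymosin expressed in many tissues, Tmsb4x, at chrX:167207093-167209315 (minus strand). The sequences are from GENCODE M21 transcripts (GRCm38), each 135 bases from start to stop codon, with the bases that differ from Tmsb10 in capitals.
Tmsb10: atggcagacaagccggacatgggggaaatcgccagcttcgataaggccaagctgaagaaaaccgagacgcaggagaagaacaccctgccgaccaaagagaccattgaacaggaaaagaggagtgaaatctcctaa
Gm9844: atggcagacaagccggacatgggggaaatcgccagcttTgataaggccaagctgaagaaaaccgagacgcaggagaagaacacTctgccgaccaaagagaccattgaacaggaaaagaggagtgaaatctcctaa
Tmsb4x: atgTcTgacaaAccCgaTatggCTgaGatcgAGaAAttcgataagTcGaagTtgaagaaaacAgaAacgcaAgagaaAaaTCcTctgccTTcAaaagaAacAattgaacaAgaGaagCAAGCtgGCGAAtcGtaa
Gm9844 differed from Tmsb10 at 2 of 135 bases and Tmsb4x at 40, with no identical run of more than 10 bases in the latter. Gm9844 matched Tmsb10 at 99.0% of 413 aligned bases, from base 278 to the end of the 690-base transcript. A further 7 annotated pseudogenes matched it at 90% or more over at least 100 bases, among them Gm3788 at 99.3% of 136 bases, so part of the Tmsb10 reads cannot be assigned to 1 of these copies and the level of Tmsb10 is uncertain to that extent. Counts assigned to Gm9844 were few, 0.695 CPM in young and 3.02 CPM in low-share aged oocytes. Tmsb4x was lower still in young oocytes, at 0.2999 CPM, and at 1.54 CPM in low-share aged oocytes.

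**Figure D1:**
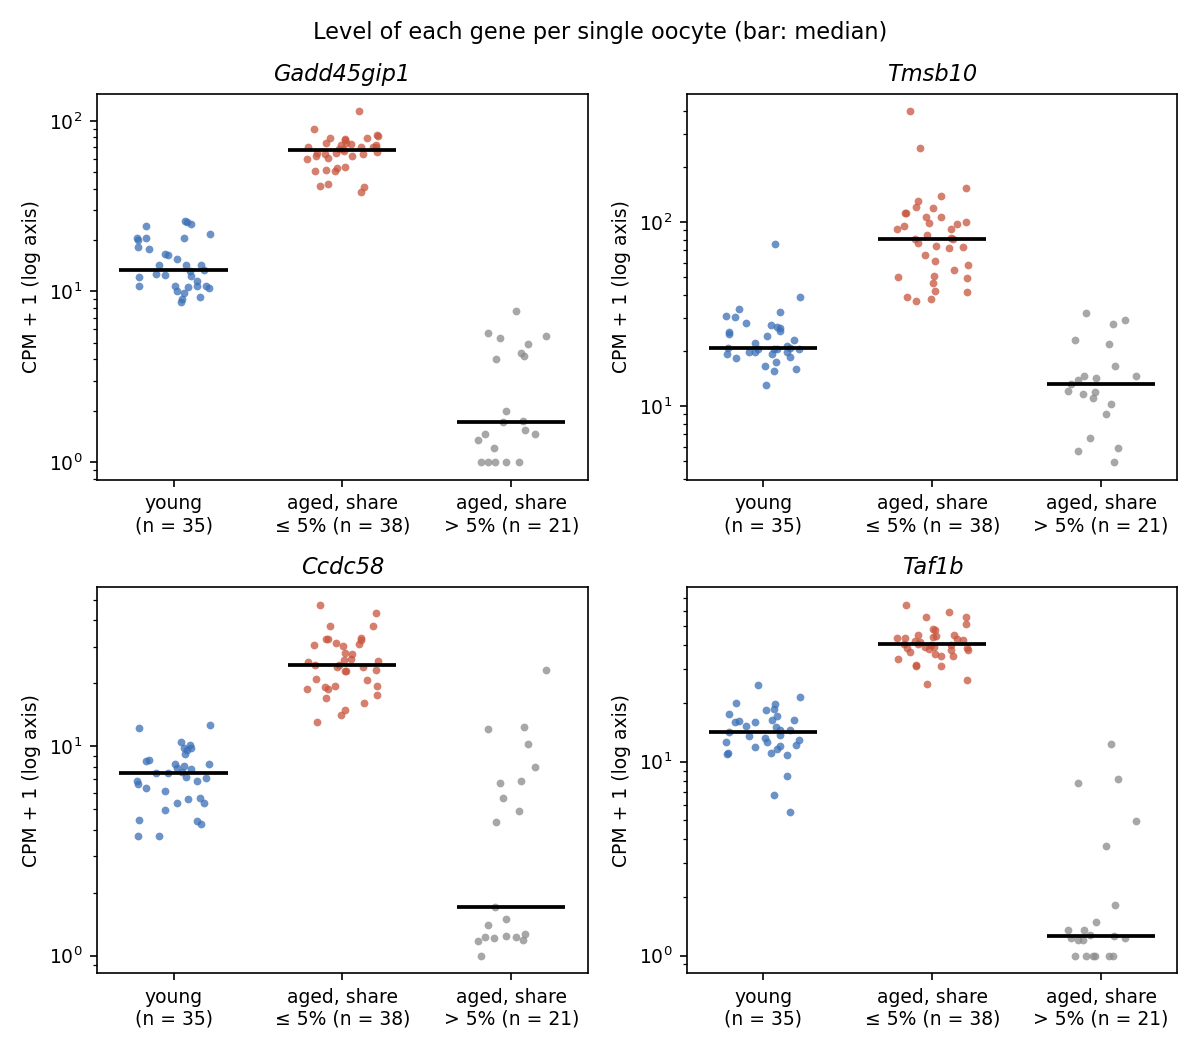
Level of each gene in every single oocyte, as CPM + 1 on a log axis, for young oocytes and for aged oocytes with a mitochondrial share of at most 5% or above 5%; points are oocytes and bars medians. In Gadd45gip1, Ccdc58 and Taf1b every low-share aged oocyte is above every young oocyte, in Tmsb10 22 of 38 are above the highest young one, and high-share oocytes are mostly the lowest group.

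Among 8413 genes with a mean of at least 5 CPM over both ages, 180 (2.14%) were at least 2-fold higher in low-share aged oocytes and 22 (0.262%) at least 2-fold lower. By ratio Gadd45gip1 was at position 1, Tmsb10 at 4, Ccdc58 at 7 and Taf1b at 23, so the members are not the 4 highest. The genes between them in the first 12 were Snrnp70 (4.29), Gm813 (4.28), Zfp951 (3.86), Gm45410 (3.83), Cox7c (3.75), Gm10095 (3.58), Zfp791 (3.37), Terf1 (3.31) and E330017A01Rik (3.30). Next to Taf1b stood Rapsn (3.01) above and Tubgcp2 (2.98) below. In 10 of the 8413 genes (0.119%) every low-share aged oocyte was above every young oocyte. Gadd45gip1, Ccdc58 and Taf1b were 3 of them, and Gm813, Zfp951, Psmc1, Olfr976, Eps15l1 and Pik3r1 were among the others, named because so few genes met this condition. The rule used this contrast, so these positions describe the choice and support nothing.

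Levels of different genes were compared per kilobase of the annotated transcript (690 bases for Tmsb10, 1073 for Ccdc58, 2209 for Taf1b and 2494 for Gadd45gip1). In young oocytes Tmsb10 was highest at 34.3 CPM per kilobase, and Taf1b (6.07), Ccdc58 (5.95) and Gadd45gip1 (5.71) lay close together. In low-share aged oocytes the order was Tmsb10 (138), Gadd45gip1 (25.9), Ccdc58 (22.8) and Taf1b (18.1).

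The 4 transcripts were shorter than the median of the ranked genes, to unlike degrees. Of ranked genes with a coding transcript, 1.42% had a shorter one than Tmsb10 and 5.58% than Ccdc58. For Taf1b it was 27.7% and for Gadd45gip1 33.4%. Among 7867 ranked genes with a coding transcript the median transcript was 3241 bases, with a 3′ untranslated region (UTR) of 1108 bases. The 3′ UTR was 1056 bases in Gadd45gip1, 265 in Tmsb10, 236 in Ccdc58 and 175 in Taf1b. Of the 180 genes at least 2-fold higher in low-share aged oocytes, 157 had such a transcript, with a median length of 2209 bases and a median 3′ UTR of 456 bases. GC content gave no such difference: its median was 48.7% in both sets, and the members ranged from 45.3% in Taf1b to 58.7% in Tmsb10.

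In the high-share aged oocytes, which the choice of members did not use, the medians of all 4 lay below those of both the low-share aged and the young oocytes. The low-share and young levels were used by that choice. Lower levels were also common among genes: over 8413 genes the median ratio of high-share aged over young oocytes, by summed CPM, was 0.472. It was 0.150 for Gadd45gip1, 0.152 for Taf1b, 0.593 for Tmsb10 and 0.642 for Ccdc58. Gadd45gip1 was at 0 to 6.71 CPM (median 0.715), with no count in 5 of 21 oocytes, and all 21 were below the lowest young oocyte. Taf1b was at 0 to 11.3 CPM (median 0.264), with no count in 6, and 18 of 21 were below the lowest young oocyte. Ccdc58 was at 0 to 22.2 CPM (median 0.717), with 11 below the lowest young oocyte and 5 at or above the young median. Tmsb10 kept a count in all 21, at 3.95 to 30.9 CPM (median 12.1), with 10 below the lowest young oocyte and 5 at or above the young median.

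High-share libraries give much of their total to mitochondrial reads, so levels were also taken with nuclear gene counts alone as the total. On that scale the median of Tmsb10 was 17.3 in high-share and 19.9 in young oocytes, whereas Gadd45gip1 was at 1.09 against 12.6, Ccdc58 at 1.29 against 6.53 and Taf1b at 0.406 against 13.3. Of the 8413 genes, 53.9% were at least 2-fold lower by summed CPM in high-share than in low-share aged oocytes, 6.91% at least 2-fold higher, and the median ratio was 0.443. The members' ratios were 0.0330 for Gadd45gip1, 0.0510 for Taf1b, 0.148 for Tmsb10 and 0.168 for Ccdc58. Their denominators are the levels by which the members were chosen, so nothing is read from these ratios. The oocyte markers fell together with them, as given above, and the part of library quality in this was not tested.

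Oocyte-to-oocyte spread differed between the genes. Over 38 low-share aged oocytes the coefficient of variation (SD over mean) of CPM was 0.207 for Taf1b, 0.225 for Gadd45gip1, 0.321 for Ccdc58 and 0.700 for Tmsb10. The median over 5846 genes of 10 to 200 CPM in aged and 5 to 200 CPM in young oocytes was 0.277, and 99.4% of them varied less than Tmsb10. Over 35 young oocytes the values were 0.299, 0.366, 0.353 and 0.456 in the same order, against a median of 0.265. Gadd45gip1, Taf1b and, by a smaller margin, Ccdc58 were thus relatively more even among aged low-share than among young oocytes, and Tmsb10 less even. Each member had fewer counts in young oocytes, where counting error weighs more, and its part in these differences was not tested. Most of the spread of Tmsb10 lay in a few oocytes, since its low-share quartiles were 54.8 and 105 CPM.

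Within an age the pairs of genes differed in how they varied together. Over the 38 low-share aged oocytes Spearman's rho between Tmsb10 and Ccdc58 was 0.65, and the other 5 pairs were between -0.23 (Gadd45gip1 with Tmsb10) and 0.20 (Tmsb10 with Taf1b). High values were common with these 2 genes: over 5382 genes the 95th percentile of rho was 0.57 with Tmsb10 and 0.56 with Ccdc58. Other genes ran more closely with each of them, as given below, so the value is not particular to this pair. Over the 35 young oocytes all 6 pairs were between 0.15 and 0.42. These correlations are across oocytes of 1 sample, each scaled by its own total, and whether they were prepared together is not stated in the labels. Ccdc58 followed the share of synthetic ERCC spike-in reads among low-share oocytes (rho 0.62), Tmsb10 less so (0.27), and Gadd45gip1 (-0.04) and Taf1b (-0.14) showed no such relation, and the part of library composition in the value of the pair was not tested. Ccdc58 also followed the mitochondrial share (0.45) and ran against the number of genes with a count (-0.32), and for the other 3 genes these values were between -0.19 and 0.26. With total counts rho ran from -0.22 to 0.12 for the 4 genes.

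**Figure D2:**
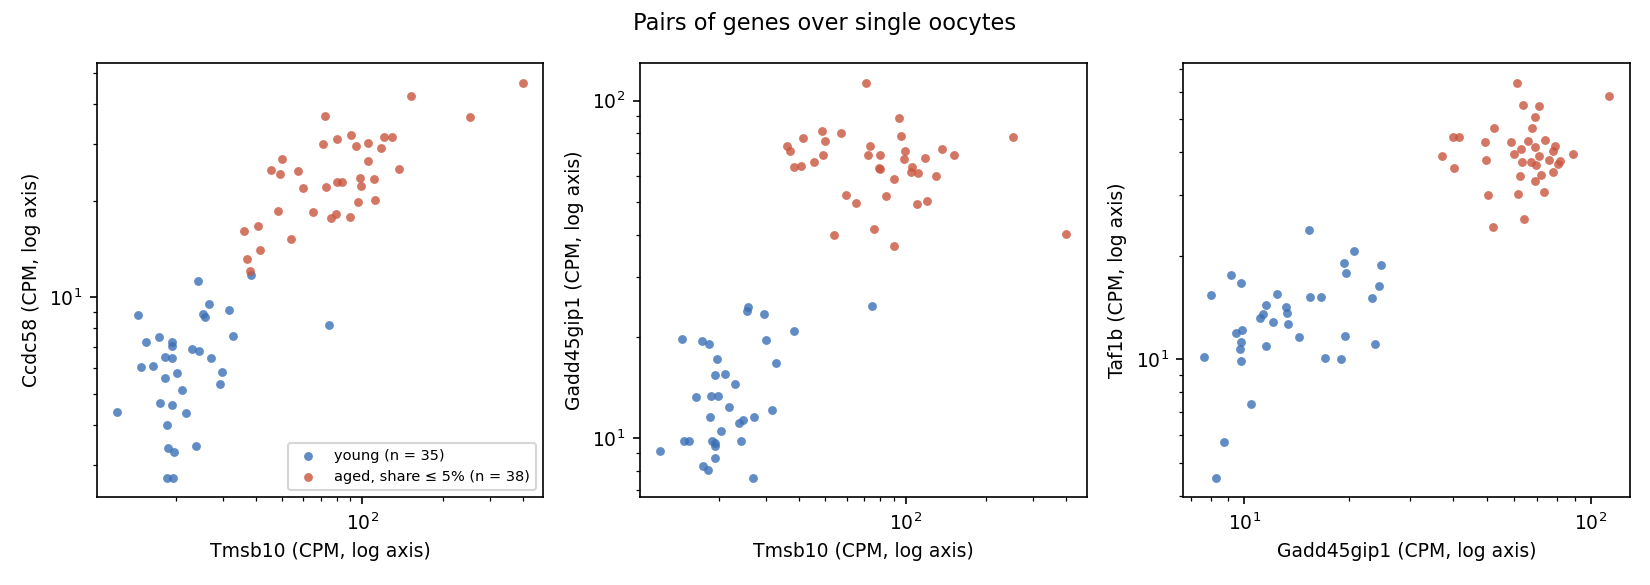
CPM of pairs of genes in each young oocyte and each low-share aged oocyte, both axes logarithmic. Tmsb10 and Ccdc58 rise together within the aged oocytes (rho 0.65, n = 38), while Tmsb10 with Gadd45gip1 (rho -0.23) and Gadd45gip1 with Taf1b (rho 0.01) do not, although the ages stand apart in all panels.

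The genes most like each member over the low-share oocytes were sought among 5382 genes of at least 20 CPM, by Spearman's rho of log2(CPM + 1), as a description without test. Tmsb10 ran with Elobl (0.89 in aged, 0.53 in young oocytes), the proteasome gene Psmb2 (0.87 and 0.47), the complex I gene Ndufs5 (0.85 and 0.54) and 0610009B22Rik (0.83 and 0.40). Ccdc58 ran with the ribosomal protein gene Rpl5 (0.78 and 0.32), the complex I gene Ndufa1 (0.77 and 0.04), the proton pump gene Atp6v0e (0.77 and 0.47), Gm813 (0.76 and 0.40) and Cnih4 (0.75 and 0.40). Gadd45gip1 ran with the nucleolar GTPase gene Gtpbp4 (0.70 and 0.62), the phosphatase gene Ptpn11 (0.70 and 0.46), the chaperone gene Hspa4 (0.69 and 0.53), Lrrfip2 (0.69 and 0.29) and Nol7 (0.68 and 0.25). Those nearest to Taf1b were the condensin gene Ncapd3 (0.68 and -0.03), Cops7b (0.57 and -0.12), Dock5 (0.57 and -0.15), Tdrd5 (0.57 and -0.09) and Card6 (0.54 and -0.36). The neighbours of Tmsb10, Gadd45gip1 and Ccdc58 had positive values in young oocytes too, the lowest being 0.04 for Ndufa1, and those of Taf1b did not. The general level of rho differed between the members. Over the 5382 genes its 95th percentile in low-share oocytes was 0.57 for Tmsb10, 0.56 for Ccdc58, 0.46 for Gadd45gip1 and 0.31 for Taf1b.

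Among genes of at least 5 CPM, the other genes of each member's pathway had lower ratios, given here as a description without test. The members were chosen by this ratio, so their place at the top of each list supports nothing. In the mitochondrial large ribosomal subunit 30 of 52 genes reached 5 CPM, 22 of them higher in low-share aged oocytes, and Gadd45gip1 was the only 1 of them at least 2-fold higher. The median log2 ratio of the other 29 was 0.25, against 0.08 for all genes. Next came Mrpl42 (1.87-fold, 8.19 CPM in young and 15.3 CPM in aged) and Mrpl28 (1.76-fold), and the lowest were Mrpl10 (0.842) and Mrpl3 (0.881). List genes under 5 CPM had ratios from 0.707 (Mrpl43) to 2.71 (Mrpl46), and several passed 2-fold, such as Mrpl27 (2.41). Gadd45gip1 thus stood alone past 2-fold only among the genes of at least 5 CPM. None of the GADD45 genes reached 5 CPM: Gadd45a was at 3.20 CPM in young and 3.31 CPM in low-share aged oocytes, Gadd45b at 1.75 and 1.96 CPM, and Gadd45g at 0.00330 CPM in young with 0 counts in low-share aged oocytes.

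Of 38 genes of actin monomer binding and assembly 26 reached 5 CPM. Apart from Tmsb10 none of these was 2-fold higher (Tmsb4x, under 5 CPM, had a ratio of 5.15), and the median log2 ratio of the other 25 was 0.09. Arpc5 of the branching complex Arp2/3 had the next ratio, 1.40, followed by Twf2 with 1.36, and the monomer-binding genes Twf1 (0.658) and Pfn2 (0.677) had the lowest. Among 30 genes of intermembrane space import and twin-cysteine proteins 17 reached 5 CPM, of which 15 were higher. Chchd2 was 2.80-fold and Timm9, a chaperone of inner membrane proteins on their way in, 2.55-fold higher, beside Ccdc58. The median of the other 16 was 0.36, and Aifm1 (0.954) and Coa5 (0.959) were lowest. Chchd4, the receptor of that import route, was at 0.0527 CPM in young and 0.115 CPM in low-share aged oocytes.

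For RNA polymerase I, 15 of 22 genes reached 5 CPM and 9 were higher. Polr2l, a subunit common to the RNA polymerases, was 2.23-fold and Polr1d 1.66-fold higher beside Taf1b, and the median of the other 14 was 0.11. The partners of Taf1b in the selectivity factor had ratios nearer to 1, of 1.06 for Taf1a, 1.22 for Taf1d and 1.14 for Tbp. Taf1a was at 175 CPM in young and 186 CPM in low-share aged oocytes, Taf1d at 10.6 and 13.0 CPM and Tbp at 83.1 and 95.02 CPM. Taf1c was at 0.0890 and 0.157 CPM. The initiation factor gene Rrn3 had a ratio of 0.851 and Cd3eap, a polymerase subunit, the lowest at 0.752.

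**Figure D3:**
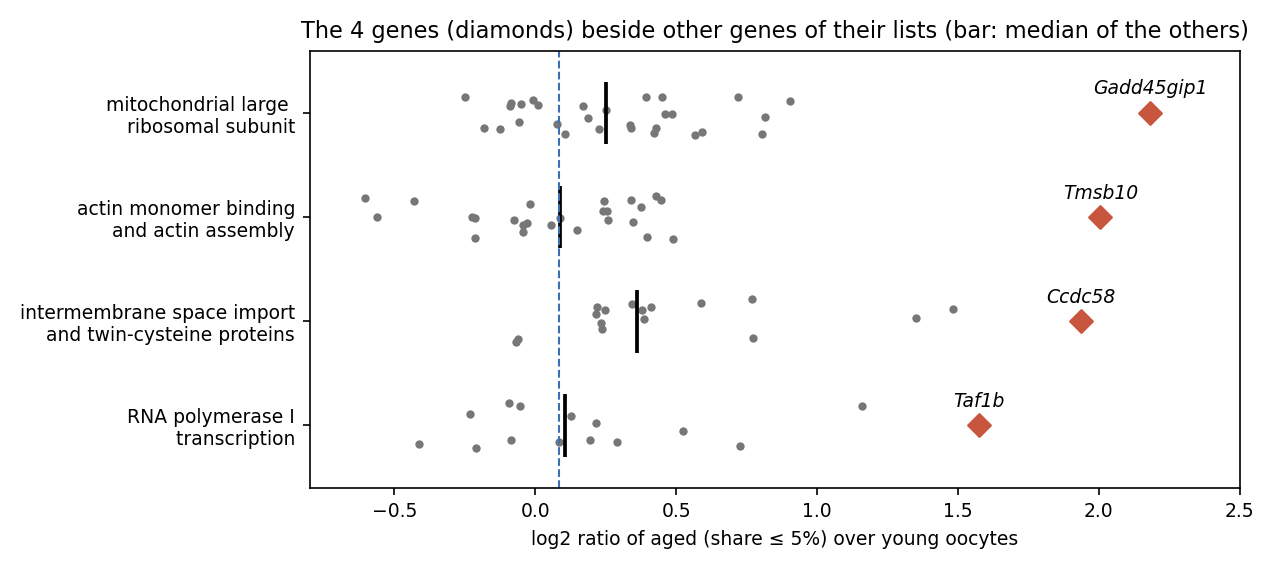
Log2 ratio of low-share aged over young oocytes for genes of at least 5 CPM in the lists of the 4 members; points are genes, diamonds the members, bars the median of the other genes and the dashed line the median of all genes (0.08). Each member, having been chosen by this ratio, has the highest one among the genes shown of its list. The medians of the others lie between 0.09 and 0.36.

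Many somatic cells express Tmsb10 strongly, so markers of the cells around an oocyte are given beside it; their part in its level was not tested. Cumulus and granulosa markers (14 genes) summed to 40.4 to 107 CPM in low-share aged and 52.8 to 112 CPM in young oocytes, of which Cyp19a1 alone gave means of 64.5 and 69.7 CPM. In low-share aged oocytes Ptx3, Amhr2 and Fst had no count and 11 of 14 a median of 0. Young oocytes had no count of Amh, Foxl2, Fshr and Amhr2, and 9 of 14 had a median of 0. Blood and immune markers (10 genes) summed to 3.82 to 19.0 CPM in low-share aged and 4.74 to 21.3 CPM in young oocytes, with 4 and 2 of them at 0. Stroma, theca and endothelium markers (11 genes) summed to 75.9 to 178 and 103 to 234 CPM, with 4 and 5 at 0, nearly all of it Pecam1. The low-share oocyte with 399 CPM of Tmsb10 had a cumulus sum of 106 CPM, near the highest of its group (median 77.5 CPM). Its stroma sum of 75.9 CPM was the lowest of its group. The low-share oocytes with 252 and 152 CPM of Tmsb10 had cumulus sums of 78.1 and 40.4 CPM, the latter the lowest of the group. Their stroma sums were 111 and 80.2 CPM.

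The pools asked what depletion of Plat changes in young oocytes and are separate libraries that the choice of members did not use. Plat itself fell, from 441 and 439 CPM in the control pools to 51.4 and 39.0 CPM in the siPlat pools (log2 fold change -3.28). In pools fewer cells of a type and less RNA per cell cannot be told apart. By edgeR's quasi-likelihood test with Benjamini-Hochberg adjustment, 394 of 11136 tested genes (3.54%) passed an adjusted p under 0.05, 2.13% higher and 1.41% lower in siPlat, and 0 of the 4 members did, nor did any by DESeq2 or limma-voom. At an unadjusted p under 0.05 by edgeR 1 of 4 passed, Tmsb10, as did 18.8% of all tested genes. The count of called genes rested on single libraries: it was 157 without siCtrl 1, 160 without siCtrl 2, 713 without siPlat 1 and 1145 without siPlat 2. Of the 12 oocyte markers 4 fell in the siPlat pools (Zp1, Gdf9, Mos and H1f8) and the median log2 fold change of all 12 was -0.64. Summed, they held 34544 and 37581 CPM in siCtrl and 33017 and 30168 CPM in siPlat, and their part in the members' values was not tested.

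For Tmsb10 the siCtrl pools gave 19.8 and 22.5 CPM, the siPlat pools 40.7 and 28.9 CPM. Both siPlat pools were above both siCtrl pools, an arrangement without overlap, in either direction, that 49.4% of tested genes showed. The siCtrl mean was 21.1 ± 1.91 and the siPlat mean 34.8 ± 8.33 CPM (SD, n = 2 each). The log2 fold change was 0.72 (SE 0.24), with a p of 0.0111 in edgeR's test over all genes and an adjusted p of 0.127. Without siPlat 2 the log2 fold change was 0.96 (edgeR adjusted p = 0.0136) and without siPlat 1 it was 0.45 (adjusted p = 0.385). Adjusted p ran from 0.0136 to 0.489 over the alternatives.

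The siCtrl pools held Gadd45gip1 at 50.8 and 44.1 CPM, and the siPlat pools at 62.7 and 58.0 CPM, also without overlap. Its log2 fold change was 0.35 (SE 0.19, edgeR adjusted p = 0.363). Levels of Ccdc58 were 25.5 and 28.1 CPM with siCtrl against 27.5 and 26.5 CPM with siPlat, overlapping, with a log2 fold change of 0.01 (SE 0.21, adjusted p = 0.989). Levels of Taf1b were 75.1 and 87.2 CPM with siCtrl against 73.9 and 83.0 CPM with siPlat, overlapping as well, with -0.05 (SE 0.18, adjusted p = 0.933). A p that misses the threshold does not show that the groups are equal: at 1 SE the log2 fold change of Ccdc58 ran from -0.20 to 0.22 and that of Taf1b from -0.23 to 0.14.

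In the pathway lists the pool test called few genes. Of the 52 tested genes of the mitochondrial large ribosomal subunit Mrpl34 rose (34.5 and 33.5 CPM in siCtrl, 65.6 and 58.4 CPM in siPlat, log2 fold change 0.87, edgeR adjusted p = 0.0313) and 51 did not pass, with a median of 0.23 against -0.03 for all tested genes. Of 30 tested actin genes Cobl, an actin nucleator, fell (-0.94, adjusted p = 0.0461) and 29 did not pass. Of 28 genes of intermembrane space import Timm10, a partner of Timm9, fell from 33.5 and 44.9 CPM to 12.9 and 8.01 CPM (-1.91, adjusted p = 0.00545) and 27 did not pass. Among 21 tested RNA polymerase I genes 0 passed by edgeR. An unadjusted edgeR p under 0.05 was reached by 3 of these 21 genes and by 18.8% of all tested genes. In the other lists it was reached by 13 of 52 mitochondrial ribosomal, 12 of 30 actin and 6 of 28 intermembrane space genes. Gadd45a (1.37, adjusted p = 0.101) and Gadd45b (-1.41, adjusted p = 0.176) did not pass either.

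The pools also gave levels in oocytes labelled young, and these stood apart from the young single oocytes. The tables were scaled separately, so both were rescaled to the 13661 genes they share, a step added after the data were seen, and levels across tables were set side by side without a test. On that scale Gadd45gip1 was at 53.4 and 47.8 CPM in siCtrl 1 and 2, above all 35 young oocytes (8.11 to 26.2 CPM) and within the range of the low-share aged oocytes (40.7 to 124 CPM). Ccdc58 was at 26.8 and 30.5 CPM, above all young oocytes (2.89 to 12.5 CPM) and amid the aged ones (12.9 to 50.2 CPM). Taf1b was at 78.8 and 94.5 CPM, above both the young (4.79 to 25.2 CPM) and the aged oocytes (26.0 to 68.6 CPM). Only Tmsb10, at 20.8 and 24.4 CPM, lay within the young range (12.8 to 79.4 CPM) and below all 38 low-share aged oocytes (38.9 to 430 CPM).

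The siCtrl mean over the summed young level was 3.36 for Gadd45gip1, 4.23 for Ccdc58, 6.11 for Taf1b and 0.900 for Tmsb10. So 3 of 4 members were above every young oocyte in both siCtrl pools, as were 1581 of 7871 shared genes of at least 5 CPM (20.1%). Of 153 such genes at least 2-fold higher in low-share aged oocytes, 94 (61.4%) were. The members were likewise chosen for being low in these same young oocytes, so the count of 3 is a description and marks no trait of the members. A high level of Gadd45gip1, Ccdc58 and Taf1b was therefore also measured in oocytes labelled young, in libraries that differ from the single oocytes in input, treatment and table. Which of these goes with the difference cannot be told apart.

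**Figure D4:**
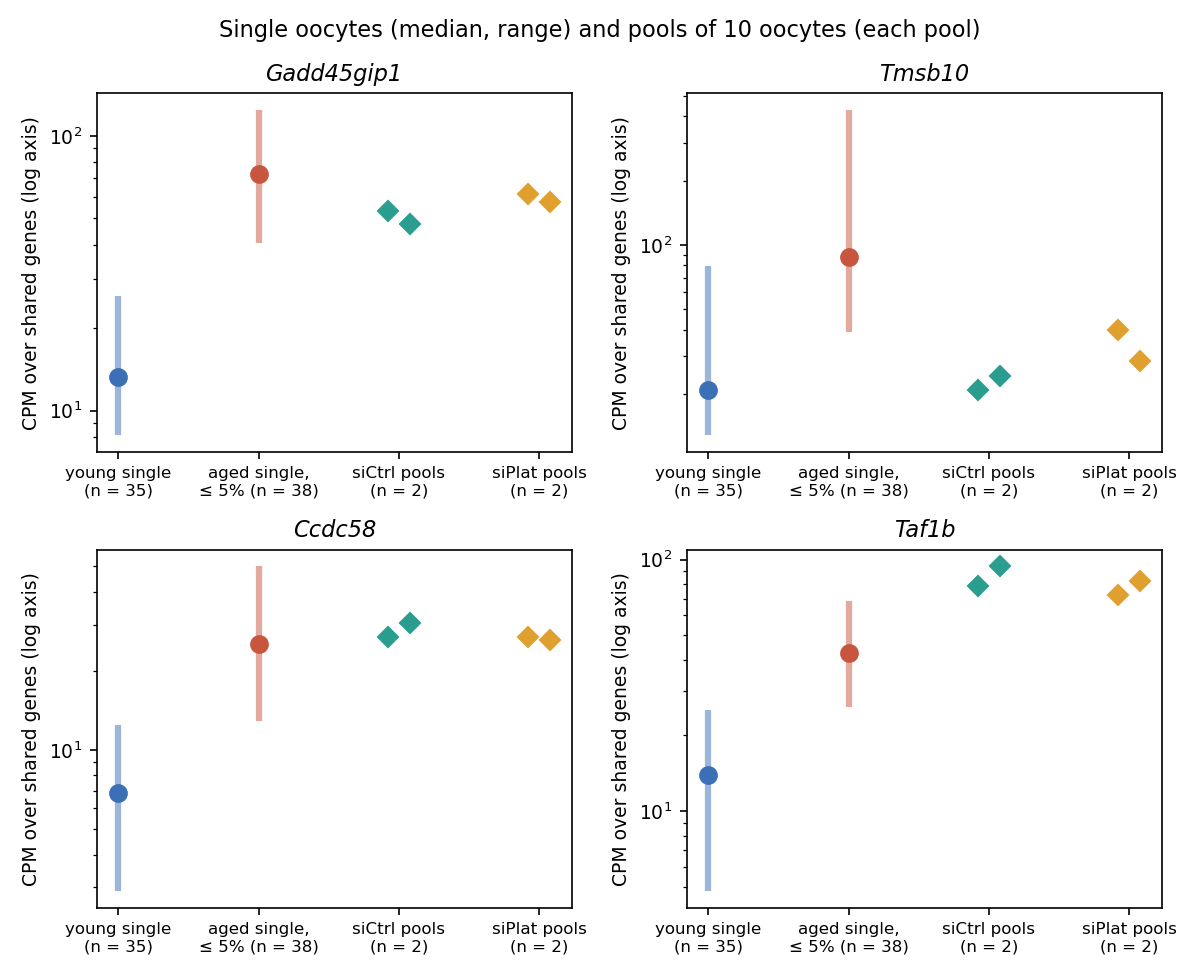
Level of each gene over the genes shared by both tables (CPM, log axis): median and full range of young and low-share aged single oocytes, and each siCtrl and siPlat pool of 10 oocytes as a diamond. The siCtrl pools lie above the whole young range for Gadd45gip1, Ccdc58 and Taf1b, and within it for Tmsb10.

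The ratio of aged over young also moved with scaling. The low-share aged libraries held more ERCC spike-in (median 235626 counts against 110006 in young), and per ERCC count the ratios were 2.54 for Gadd45gip1, 2.25 for Tmsb10, 2.14 for Ccdc58 and 1.67 for Taf1b, and the median log2 ratio of all genes was -0.75, against 0.08 on the CPM scale. This scaling takes the spike-in as equal per oocyte, an assumption that was not tested: a young library held between 18.3 and 147 gene counts for each ERCC count. The young ERCC counts fell on 2 sides of a gap, 18 oocytes at 70141 to 110006 and 17 at 184609 to 427387, and the labels name no batch. Against the former alone the ratios by CPM were 5.01, 4.26, 4.03 and 3.41, and against the latter 4.10, 3.77, 3.63 and 2.61, a split added after the data were seen. All 38 low-share aged oocytes were above every young one on either side, except for Tmsb10 on the side of higher ERCC counts, where 22 were. With all 59 aged oocytes the ratios were 3.36, 3.09, 2.97 and 2.22, and their positions among 8413 genes 38, 49, 54 and 144.

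**Figure D5:**
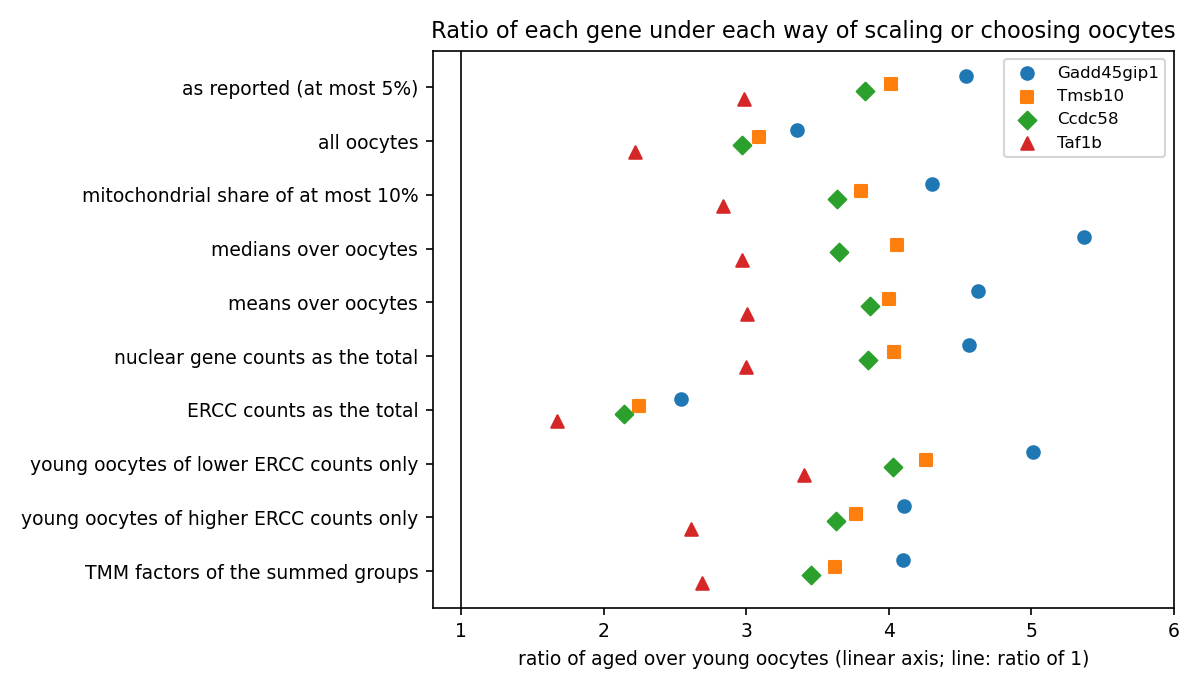
Ratio of aged over young oocytes for each gene under each choice of oocytes, summary and total (linear axis, line at a ratio of 1). All ratios stay above 1, from 1.67 for Taf1b per ERCC count to 5.37 for Gadd45gip1 with medians over oocytes.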

How the data were processed

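Polyadenylated RNA of mouse MII oocytes was read by Smart-seq2 in 94 single oocytes and 4 pools. The authors deposited whole-number counts per gene in 2 tables; STAR 2.7.10b, HTSeq 0.13.5 and mm10 are named per the submitters' processing notes, without roles. Annotation, strand setting, treatment of multiply mapped reads and filters before deposit are not named in these sources. Of the value columns 0 were unmapped and 0 oocyte columns were duplicates. The 92 ERCC entries stayed out of gene totals.

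Single-oocyte counts were summed by group to CPM; the 95% intervals are exact Poisson ones, and no test was run, as each age was 1 sample. Pools held 12142884 to 17475952 counts and were tested with edgeR 4.0.16 (robust quasi-likelihood, TMM, minimum count 10 and minimum total 15) in R 4.3.3; an SE is the log2 fold change over the square root of F. DESeq2 1.42.0 and limma 3.58.1 were alternatives. The scripts were tested on simulated data. Copies were sought with blastn 2.17.0 (at least 90% identity over 100 bases) in GENCODE M21, whose GRCm38 is the assembly that mm10 names.

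Named were the 4 members, in each list the genes called in the pools and the 2 highest and 2 lowest ratios beside the member, the 5 genes most like each member, and the 12 highest ratios; other genes were named after their values were seen. Members and lists were chosen with earlier results of these data known. Some genes that these rules select are not reported here.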

Additional observations from a re-analysis of the deposited data

How the results depend on the processing

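All ratios of aged over young oocytes stayed above 1 under the 9 alternatives, 2 of them added after the data were seen. In the order Gadd45gip1, Tmsb10, Ccdc58, Taf1b they were 3.36, 3.09, 2.97 and 2.22 with all aged oocytes, 4.30, 3.81, 3.64 and 2.84 with a share of at most 10%, 2.54, 2.25, 2.14 and 1.67 per ERCC count, and 4.10, 3.62, 3.46 and 2.69 with TMM factors. Against young oocytes of lower ERCC counts they were 5.01, 4.26, 4.03 and 3.41, and against those of higher counts 4.10, 3.77, 3.63 and 2.61. With medians over oocytes Gadd45gip1 was at 5.37. In the pools 394 genes were called by edgeR, 657 by DESeq2, and 157 to 1145 with 1 library left out. Leaving out each library gave log2 fold changes of 0.25 to 0.46 for Gadd45gip1, 0.45 to 0.96 for Tmsb10 (called at 0.96), -0.054 to 0.081 for Ccdc58 and -0.15 to 0.064 for Taf1b. Ccdc58 changed sign without siCtrl 1 (-0.054) and without siPlat 1 (-0.018), and Taf1b without siCtrl 2 (0.064) and without siPlat 1 (0.030), none of these called. The cause of these shifts was not tested. A lone library is assumed to vary like the other group.

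With replicate number as a block 273 genes were called and the members' log2 fold changes were 0.35, 0.70, 0.01 and -0.05, none called. The numbers were not taken as pairs, since same-numbered pools deviated with a correlation of -0.06. With 2 pools per group small differences are not detectable, and neither age has replicate samples.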
